A study of Mus musculus with 7 samples.

Results

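Brain endothelial cells were followed through 10 genes that mark them, namely the growth factor receptor genes Kdr, Flt1, Tek and Tie1, the junction and adhesion genes Pecam1, Cdh5, Cldn5 and Esam, and the transporter genes Slco1a4 and Abcb1a. All probe sets that the platform annotation gives to exactly 1 of these genes were taken, which made 15 of the 45037 probe sets other than controls, and 10 of the 18193 genes with such a probe set. The RNA came from granule neuron precursors of mouse cerebellum, from animals of genotype Math1-Cre/Ptc-loxp/Nestin-CFP, in which Cre under the Math1 promoter deletes the Hedgehog receptor gene Ptch1 in the granule neuron lineage and a fluorescent protein reports Nestin. Cells were sorted by that reporter into a Nestin-positive fraction (4 arrays, replicates 1, 3, 4 and 5) and a Nestin-negative fraction (3 arrays, replicates 1, 4 and 5). Both fractions carried the Cre, the floxed gene and the reporter, were untreated and were not cultured, and no array of Ptch1-intact cells was analysed here. The sample labels give postnatal day 7 and the tissue as medulloblastoma, whereas the series text gives postnatal day 4.

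Endothelial cells line every vessel and, in the brain, are sealed to each other by tight junctions and equipped with transporters that decide what enters from the blood, an arrangement called the blood-brain barrier. They grow under vascular endothelial growth factor (VEGF), which signals through the receptor encoded by Kdr and is captured by that encoded by Flt1, and under the angiopoietins, which bind the Tek receptor, with Tie1 as its partner. VE-cadherin (Cdh5), Pecam1, Esam and claudin-5 (Cldn5) hold the cells together. In a bulk sample, fewer cells of a type and less RNA per cell cannot be told apart.

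The sort held the labelled cells. Nes was 3.32-fold higher in the Nestin-positive fraction (limma, adjusted p = 0.0282, n = 4 and 3), and all 13 granule neuron precursor markers on the array had a probe set at or above the array median somewhere in each fraction. The array median, the middle signal of all probe sets, served as the level under which a value was treated as dim. It was 93.7 and 94.5 on the arrays of replicate 1, 84.1 on replicate 3 and 64.4 to 74.3 on those of replicates 4 and 5. The 3' to 5' signal ratio of beta-actin, a sign of RNA integrity, lay between 1.68 and 1.99. Precision is limited by having 7 arrays. No label states that each sample is another animal, so the tests measure the spread between these samples, which may be technical.

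Promoter windows from RefSeq (GRCm38.p6) matched 7 of the 10 genes (Cldn5, Kdr, Flt1, Tek, Tie1, Slco1a4 and Abcb1a, not Pecam1, Cdh5 or Esam). The 250 bases before the start are shown for 3 genes whose signals moved together over the arrays and for Slco1a4, which did not move with them, so that their upstream sequence can be compared. Capitals mark CNGGAA on either strand, a form of the core bound by ETS factors such as Erg and Fli1, which are regulators of endothelial genes. Kdr lies at chr5:75978456-75978705 on the minus strand, Tek at chr4:94739039-94739288 on the plus strand, Cldn5 at chr16:18776597-18776846 on the plus strand and Slco1a4 at chr6:141856221-141856470 on the minus strand, each read 5′ to 3′ along the gene.
Kdr: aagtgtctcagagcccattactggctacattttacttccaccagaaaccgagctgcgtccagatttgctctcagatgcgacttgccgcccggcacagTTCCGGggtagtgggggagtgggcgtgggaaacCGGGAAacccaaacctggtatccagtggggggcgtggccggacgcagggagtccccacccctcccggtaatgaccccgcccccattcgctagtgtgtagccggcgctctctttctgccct
Tek: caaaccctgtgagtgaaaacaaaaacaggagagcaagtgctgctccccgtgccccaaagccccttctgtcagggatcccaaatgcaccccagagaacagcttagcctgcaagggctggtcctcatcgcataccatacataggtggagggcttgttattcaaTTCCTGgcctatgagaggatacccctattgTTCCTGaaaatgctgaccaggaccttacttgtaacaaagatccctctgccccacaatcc
Cldn5: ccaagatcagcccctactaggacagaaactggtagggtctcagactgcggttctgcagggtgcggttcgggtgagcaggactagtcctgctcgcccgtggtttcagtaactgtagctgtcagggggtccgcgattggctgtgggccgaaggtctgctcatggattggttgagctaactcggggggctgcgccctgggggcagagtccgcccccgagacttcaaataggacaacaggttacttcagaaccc
Slco1a4: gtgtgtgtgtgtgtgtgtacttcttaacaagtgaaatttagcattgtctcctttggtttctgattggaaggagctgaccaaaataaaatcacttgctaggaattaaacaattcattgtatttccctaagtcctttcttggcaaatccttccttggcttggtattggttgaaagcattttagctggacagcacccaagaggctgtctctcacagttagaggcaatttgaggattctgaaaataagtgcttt
The Kdr and Tek windows held 2 matches each, the Kdr pair 1 on each strand and the Tek pair both on the opposite strand, and the Cldn5 and Slco1a4 windows held 0. Over the 7 windows, 4 held a match (Kdr, Flt1, Tek and Tie1), against 54.2% of all 32851 RefSeq windows of that length. The GC content was 61.6% for Kdr, 59.6% for Cldn5, 51.2% for Tek and 39.2% for Slco1a4, against a median of 52.4% over all windows. A match is a run of letters in a window and says nothing of binding.

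The signals of most endothelial genes were low. They ran with the replicate number, and the measured differences between the fractions were smaller. The arrays of replicates 4 and 5 were bright in both fractions, those of replicate 1 were dim in both, and Nestin-positive replicate 3, which has no partner, was mostly between. Of the 15 probe sets, 1 lay at or above the array median on Nestin-positive replicate 1, 3 on Nestin-negative replicate 1, 4 on Nestin-positive replicate 3, and 7 or 8 on each array of replicates 4 and 5. All probe sets of Pecam1, Tie1 and Abcb1a lay under the array median on all 7 arrays.

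**Figure D1:**
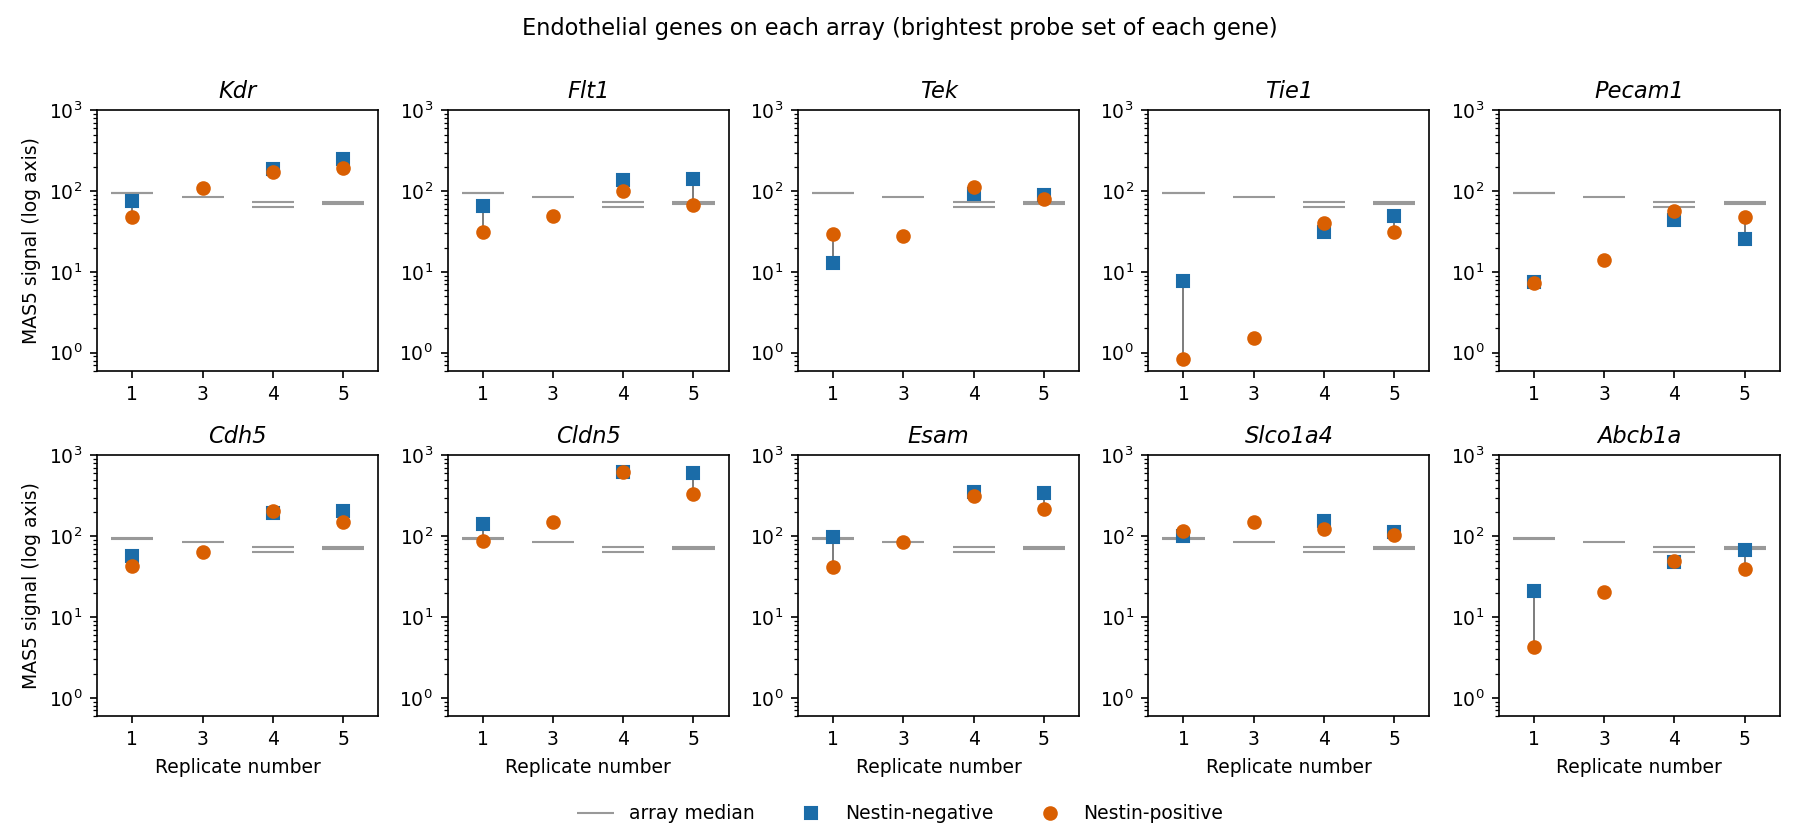
MAS5 signal (log axis) of the brightest probe set of each of the 10 genes against replicate number, with Nestin-positive arrays as circles, Nestin-negative arrays as squares, a line joining arrays of the same number, and grey bars at the array medians. Cldn5 lies at 86.8 and 142 on the arrays of replicate 1 and at 337 to 630 on those of replicates 4 and 5, while Slco1a4 stays between 101 and 154.

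Kdr, the main signalling receptor for VEGF, had signals of 47.4, 108, 171 and 195 on Nestin-positive replicates 1, 3, 4 and 5 and of 76.0, 186 and 250 on Nestin-negative replicates 1, 4 and 5. The Nestin-positive array was the lower of each pair, yet the fractions overlapped, since both arrays of replicates 4 and 5 exceeded both of replicate 1. Flt1, the VEGF receptor that acts largely as a decoy, had 4 probe sets, of which 2 passed the filter on dim values (at or above the array median on at least 3 arrays). The brighter of these read 31.2, 48.9, 99.1 and 66.8 on Nestin-positive replicates 1, 3, 4 and 5 against 66.0, 138 and 141 on Nestin-negative replicates 1, 4 and 5, lower on the Nestin-positive array of every pair. The other read 7.20, 22.8, 81.1 and 71.8 against 9.80, 98.2 and 80.0, again lower in each pair and with a 13.6-fold span over the arrays. Of the remaining Flt1 probe sets, which were dim on all arrays, one spanned 20.9 to 37.9 and had its 4 Nestin-positive values (up to 31.9) under its 3 Nestin-negative values (from 32.1; exact two-sided permutation test of mean log2 signal, p = 0.0571). It was the only 1 of the 15 probe sets whose fractions did not overlap; over all probe sets 9.04% did not.

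Tek, the angiopoietin receptor also called Tie2, read 29.8, 28.1, 111 and 79.2 on the Nestin-positive arrays of replicates 1, 3, 4 and 5, and 12.9, 92.1 and 90.2 on the Nestin-negative arrays of replicates 1, 4 and 5. Its Nestin-positive signal was the higher in pairs 1 and 4 and the lower in pair 5, and the values of replicates 1 and 3 were all dim. Tie1, the co-receptor, was dim on every array and ran from 0.846 on Nestin-positive replicate 1 to 49.1 on Nestin-negative replicate 5, so that only a bound can be given for its level.

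Cldn5, the claudin that closes the blood-brain barrier, gave 86.8, 151, 630 and 337 on Nestin-positive replicates 1, 3, 4 and 5 and 142, 618 and 613 on Nestin-negative replicates 1, 4 and 5. In pair 4 both fractions were alike (log2 difference 0.03), and in pairs 1 and 5 the Nestin-positive array was lower by 0.71 and 0.86 on the log2 scale in turn. Esam, an adhesion molecule of endothelial tight junctions, followed the same course, with 41.5, 84.2, 313 and 217 in the Nestin-positive and 99.1, 353 and 346 in the Nestin-negative fraction, and was lower on the Nestin-positive array in all 3 pairs. Cdh5, the cadherin of endothelial adherens junctions, read 43.3, 63.5, 203 and 151 against 56.4, 195 and 208 with its brighter probe set. Its second probe set did not exceed 25.1 on any array. Pecam1, which joins endothelial cells and is also found on platelets and leukocytes, went from 7.24 on Nestin-positive replicate 1 to 56.8 on Nestin-positive replicate 4, all of it dim.

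The transporter genes behaved differently from each other. Slco1a4, an organic anion transporter of the barrier, read 116, 150, 123 and 105 on Nestin-positive replicates 1, 3, 4 and 5 and 101, 154 and 112 on Nestin-negative replicates 1, 4 and 5, a 1.53-fold span that was above the array median on all 7 arrays. Abcb1a, which encodes the drug efflux pump P-glycoprotein, was dim throughout, with its brighter probe set between 4.30 and 67.0. The related gene Abcb1b and other Slco1a genes may contribute to such probe sets, which was not tested.

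The comparison of the sort asks whether endothelial transcripts were carried more by one fraction. Of the 10 genes, 7 had a probe set that passed the filter, and limma called 0 of these 7, with 0 at an unadjusted p under 0.05. Over all 11089 genes tested, 0.748% were called, and 1599 genes had an unadjusted p under 0.05. The 7 had a median log2 difference (Nestin-positive minus Nestin-negative) of -0.46, against -0.03 over all genes tested, and 5 of the 7 were negative. Without a filter 0 of all 10 were called, where 0.286% of 18193 genes were. Leaving out 1 array at a time, the median ran from -1.07 without Nestin-negative replicate 1 to -0.08 without Nestin-positive replicate 1, with 0 of the 7 called each time.

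The intervals around these differences were wide. Esam differed by -0.89 ± 0.69 (SE) on the log2 scale (95% interval -2.43 to 0.65, adjusted p = 0.621), Flt1 by -0.95 ± 0.45 (-1.95 to 0.06, 0.378) and Cldn5 by -0.72 ± 0.69 (-2.27 to 0.83, 0.698). Kdr and Cdh5 differed by -0.41 ± 0.53 and -0.46 ± 0.61, and Tek by 0.13 ± 0.78 with an interval of -1.60 to 1.86, which leaves its direction unknown. Slco1a4 had the tightest estimate, 0.03 ± 0.24 (-0.52 to 0.57). Exact two-sided permutation tests, with 35 ways to split the arrays, returned p = 0.143 for Flt1 and 0.400 to 0.914 for the other 6, where 0.0286 is the smallest value possible.

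Taking the replicate number as a pair narrowed the errors. With it as a block, over the 3 pairs, 1 of the 7 genes was called, where 10.1% of all genes tested were. This was Esam, with a log2 difference of -0.70 ± 0.21 (SE; 95% interval -1.15 to -0.26, adjusted p = 0.0401). Its adjusted p was 0.232 without pair 1, 0.134 without pair 5, 0.136 without the filter, where 4.01% of all genes were called, and 0.107 where all kept probe sets were tested in place of 1 per gene, where 4.45% of probe sets were called. Cldn5 differed by -0.51 ± 0.17 (adjusted p = 0.0632; -0.79 and 0.00952 without pair 4) and Flt1 by -0.88 ± 0.31 (adjusted p = 0.0754). Kdr (-0.39 ± 0.23), Cdh5 (-0.26 ± 0.24), Tek (0.43 ± 0.40) and Slco1a4 (-0.07 ± 0.24) had adjusted p-values of 0.354 to 0.914. The median over the 7 genes was -0.39 with the block, against -0.01 over all genes tested.

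**Figure D2:**
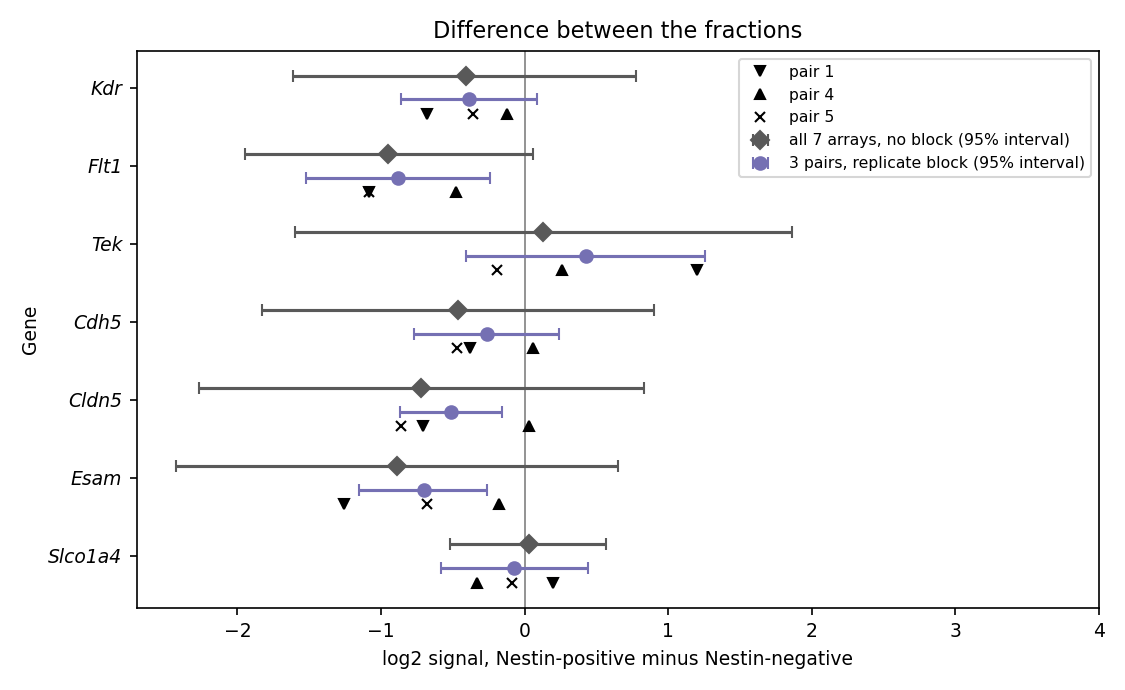
Log2 difference between the fractions for the 7 genes that passed the filter, with 95% intervals from the limma fit of all 7 arrays (diamonds) and from the fit with the replicate number as a block (circles), and the difference in each pair (small symbols). All 7 diamonds have intervals that include 0, and with the block those of Esam, Cldn5 and Flt1 lie under 0.

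In measured signal, 6 of the 10 genes differed between replicate numbers, among them Tie1, which was dim on every array. This test was chosen after the values had been seen, and it used no filter, since the filter retains genes that are bright on the 4 arrays of replicates 4 and 5. In the blocked fit, an F test of the replicate number called 6 of the 10 genes, where 5.94% of 18193 genes were called. They were Cldn5 (adjusted p = 0.000101), Esam (0.000729), Cdh5 (0.00363), Kdr (0.00495), Tek (0.0249) and Tie1 (0.0402). Abcb1a (0.0871), Flt1 (0.0956), Pecam1 (0.0632) and Slco1a4 (0.714) did not pass.

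In replicate 4 the log2 signal of Cldn5 exceeded that of replicate 1 by 2.49 ± 0.23 (SE; 5.62-fold), and in replicate 5 by 2.03 ± 0.23 (4.09-fold). Esam was higher by 2.37 ± 0.28 and 2.09 ± 0.28 in replicates 4 and 5, or 5.18-fold and 4.27-fold. For both, 1 array of replicate 1 was dim, and with dim values raised to the array median the folds were 5.41 and 3.94 for Cldn5 and 3.45 and 2.84 for Esam. Kdr and Cdh5 were dim on both arrays of replicate 1. Kdr was at least 1.90-fold higher in replicate 4 and at least 2.34-fold higher in replicate 5, and Cdh5 at least 2.12-fold and 1.88-fold higher. The measured log2 differences behind these bounds were 1.57 and 1.88 for Kdr and 2.01 and 1.84 for Cdh5. Tek and Flt1 were dim on both arrays of replicate 1 too, and Tie1 on all arrays, so the size of their differences is not known. With dim values raised to the array median, among genes that passed the filter, the F test did not call Tek (adjusted p = 0.721) or Flt1 (0.644).

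Replicates 4 and 5 were close. None of the 10 genes was called between them by limma (0.165% of all genes were), with a median difference of -0.26. In replicate 4 against 1, 7 of the 10 were higher and 0 lower, where 4.17% of all genes were higher, and in replicate 5 against 1, 6 were higher and 0 lower, where 4.06% were. Tie1, counted in both contrasts with replicate 1, and Pecam1, counted in replicate 4 against 1, were dim on every array. The 3 contrasts share arrays, and each number has 1 array per fraction. What the replicate number marks is not given in the labels. Slco1a4 differed by 0.35 ± 0.31 and by 0.00 ± 0.31 in those contrasts.

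**Figure D3:**
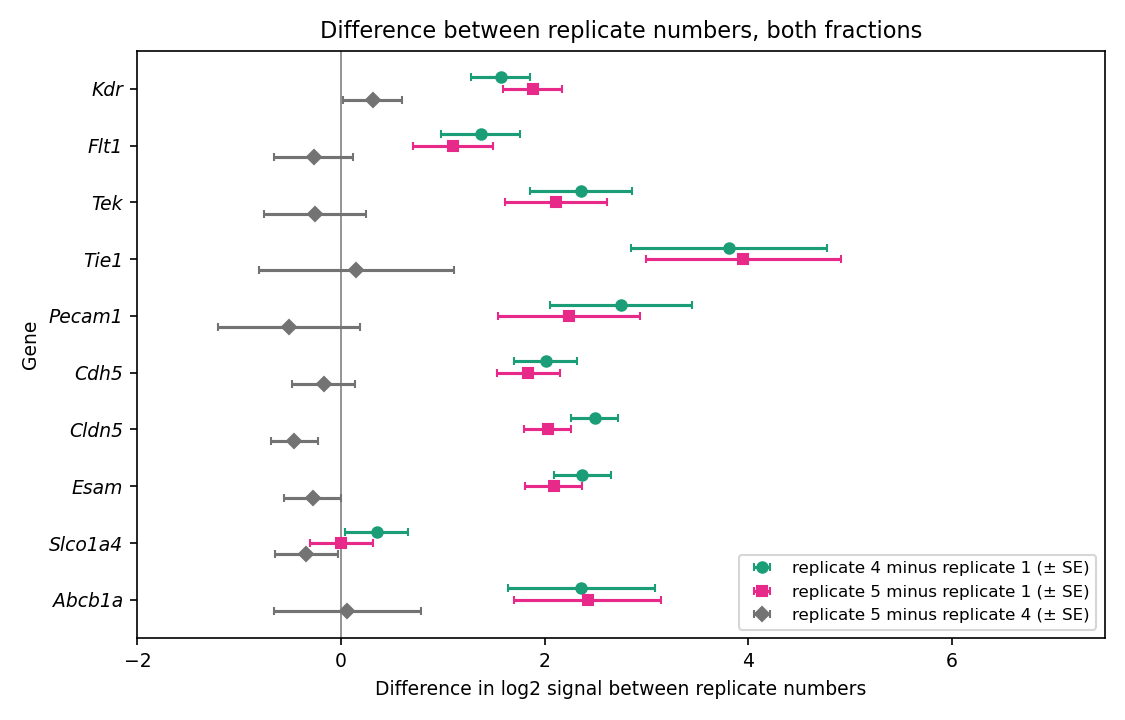
Difference in log2 signal between replicate numbers for the 10 genes, averaged over both fractions, with standard errors from the blocked limma fit; values of Pecam1, Tie1 and Abcb1a are dim on every array. Replicates 4 and 5 lie to the right of replicate 1 for 9 genes, by 1.10 or more, whereas replicates 5 and 4 lie near each other.

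Most other genes of the growth factor axis differed less between replicate numbers, though the difference from the receptors was not tested. Among those that passed the filter, Nrp1 and Ptprb differed most. In the blocked fit, Nrp1, bright on all arrays, was higher in replicates 4 and 5 than in replicate 1 by 0.73 and 1.18 (log2). Ptprb, dim on both arrays of replicate 1, was higher by 1.46 and 0.91. The list held the VEGF ligands Vegfa, Vegfb, Vegfc, Vegfd and Pgf, the receptors Flt4, Nrp1 and Nrp2, the angiopoietins Angpt1 and Angpt2, and Ptprb, Plcg1 and Dll4. Of its 13 genes 9 passed the filter and 0 were called between the fractions, with a median log2 difference of -0.01. At an unadjusted limma p under 0.05 there were 0 of the 9, where 1599 of all 11089 genes tested were. With the block, 1 of the 9 was called, a share near the 10.1% of all genes tested. It was Vegfc, a ligand of the lymphatic VEGF receptor (-0.59 ± 0.18, adjusted p = 0.0377). Its signals were 200.0, 414, 208 and 217 on Nestin-positive replicates 1, 3, 4 and 5 and 217, 369 and 386 on the Nestin-negative arrays. Angpt1, the ligand that stabilises vessels through Tek (0.38 ± 0.18 with the block, adjusted p = 0.211), and Nrp1, a VEGF co-receptor also found on axons (0.40 ± 0.20, 0.238), did not pass. The F test of the replicate number called 0 of the 13 without a filter, where 5.94% of all genes were called. In a list of this size, 0 is near that share. Replicate 4 exceeded replicate 1 by a median of 0.50.

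A wider set of 28 endothelial genes was mixed. Of its members 19 passed the filter and 0 were called between the fractions, with a median log2 difference of -0.62. At an unadjusted limma p under 0.05 there was 1 of the 19, where 1599 of all 11089 genes tested were. Leaving out Nestin-positive replicate 1 moved that median to -0.06, leaving out Nestin-negative replicates 4 or 5 to -0.25 or -0.27, and leaving out Nestin-negative replicate 1 to -1.04. With the block 2 were lower and 2 higher, where 6.52% and 3.6% of all genes tested were. Aplnr, the apelin receptor of sprouting vessels, had a log2 difference of -1.05 ± 0.21 (SE; adjusted p = 0.00225), its signals being 23.8, 247, 1570 and 845 on Nestin-positive replicates 1, 3, 4 and 5 and 94.2, 1760 and 1680 on Nestin-negative replicates 1, 4 and 5. Both values of its pair 1, which differed most (-1.98), were dim. Cd93, a C-type lectin of endothelium, had one of -1.43 ± 0.42 (adjusted p = 0.0336), from values of 3.65 and 40.4 in pair 1, which are dim, to 202 and 325 in pair 5. Calcrl, the receptor that binds adrenomedullin with Ramp2, was higher (0.96 ± 0.18, adjusted p = 0.000974), at 934, 1620, 815 and 867 against 272, 559 and 587, so that here the fractions did not overlap. Sox18, a SoxF transcription factor of vessels, was also higher (0.40 ± 0.12, adjusted p = 0.0332), with signals of 1140 to 3150 over the 7 arrays. Without a filter, the F test of the replicate number called 11 of the 28, where 5.94% of all genes were, and replicate 4 exceeded replicate 1 by a measured median of 1.24.

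Other genes of the blood-brain barrier were read in the same way. Of 31 listed, 28 were on the array and 21 passed the filter. Limma called 0 of these 21 between the fractions, with a median of -0.18. It gave 3 of the 21 an unadjusted p under 0.05, where 1599 of all 11089 genes tested had one. With the block 1 of the 21 was called, where 10.1% of all genes tested were. Apcdd1, an inhibitor of Wnt signalling in barrier vessels, rose in Nestin-positive cells (log2 difference 0.52 ± 0.11, adjusted p = 0.00391), with signals of 3580 to 5680 against 2020 to 4000. Tspan12, a co-receptor for norrin (0.47 ± 0.16, adjusted p = 0.0645), Spock2 (-0.58 ± 0.20, 0.0738) and Itm2a (0.32 ± 0.12, 0.0878) did not pass. The F test of the replicate number called 12 of the 28 without a filter, where 5.94% of all genes were, and replicate 4 exceeded replicate 1 by a median of 0.70.

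Within each fraction, markers of several other cells were also lower in replicate 1 than in replicates 4 and 5, and so their values are set beside those of the endothelium. As the mean log2 signal relative to all arrays, the 7 endothelial genes stood at -1.22, -0.58, 0.71 and 0.29 on Nestin-positive replicates 1, 3, 4 and 5 and at -0.83, 0.82 and 0.82 on Nestin-negative replicates 1, 4 and 5. The 10 pericyte and smooth muscle markers stood at -1.83, -1.31, -0.12 and 0.12 against -0.35, 1.53 and 1.95, and the 9 microglia and macrophage markers at -2.17, -2.02, -0.86 and -0.05 against 0.90, 1.42 and 2.78. Thus the Nestin-negative array exceeded its partner by 0.39, 0.11 and 0.53 in pairs 1, 4 and 5 for the endothelial genes, by 1.47, 1.65 and 1.83 for the pericyte list, and by 3.07, 2.28 and 2.84 for the microglia list. These are means over genes that passed the filter. Without a filter, the 10 endothelial genes stood at -1.65, 0.91 and 0.52 on Nestin-positive replicates 1, 4 and 5. On the Nestin-negative arrays they stood at -0.83, 0.90 and 0.94, nearly level in pair 4 and further apart in pair 1. The 14 pericyte genes then stood at -1.59, -0.10 and -0.03 against -0.08, 1.38 and 1.58. The 13 microglia genes stood at -1.80, -0.70 and -0.02 against 0.48, 1.22 and 2.54.

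With the block 9 of the 10 pericyte genes were lower in the Nestin-positive fraction, among them Rgs5 (-2.32 ± 0.13), Vtn (-2.37 ± 0.17), Pdgfrb (-2.90 ± 0.22) and Acta2 (-2.09 ± 0.19), and 9 of the 9 microglia genes, where 6.52% of all genes tested were lower. Rgs5, Vtn, Pdgfrb and Acta2 were dim on Nestin-positive replicate 1 (8.13 to 63.6), so these sizes rest partly on dim values. Pdgfrb was dim on Nestin-negative replicate 1 as well (68.5). Without the block, only Csf1r and Lyz2 were called in the pericyte and microglia lists, both lower, where 0.577% of all genes tested were. Lyz2 and C1qc passed the filter only through the Nestin-negative arrays, where they were higher, as all their Nestin-positive values were dim. The filter thus favoured their calls. The difference between the endothelial list and these lists was not tested. The summed signal of the 7 endothelial genes ranged from 396 to 1650 in the Nestin-positive and from 553 to 1760 in the Nestin-negative fraction, that of the pericyte list from 640 to 2140 and from 1460 to 9900, and that of the microglia list from 291 to 1090 and from 2080 to 7930. Of the markers on the array, 4 of 14 pericyte and 5 of 13 microglia genes were dim on all Nestin-positive arrays, against 3 and 0 on all Nestin-negative arrays.

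The replicate number moved other lists too. The measured log2 signal, dim values included, was higher in replicates 4 and 5 than in replicate 1 by medians of 2.36 and 2.06 over the 10 endothelial genes. The medians were 1.31 and 1.81 over 14 pericyte genes, 1.57 and 1.66 over 8 meningeal fibroblast genes, 1.39 and 1.35 over 12 astrocyte and Bergmann glia genes and 1.00 and 1.82 over 13 microglia genes. They were 0.08 and 0.06 over 13 granule neuron precursor genes, and the same over all genes. Within each fraction, the pericyte, meningeal, astrocyte and microglia lists were higher in replicates 4 and 5 than in replicate 1, as the endothelial signal was. The array medians were lower in replicates 4 and 5. The part of these lists and medians in the result was not tested. With quantile normalization, which gives all arrays the same distribution, the F test called 8 of the 10 endothelial genes and 6.47% of all genes. The astrocyte list differed from the endothelial list on Nestin-positive replicate 3, where it stood highest of all arrays at 0.78. With the block 6 of its 12 genes were lower and 2 higher, where 6.52% and 3.6% of all genes tested were. The meningeal list stood at -1.45, -1.32, 0.02 and 0.00 on the Nestin-positive arrays and at -0.30, 1.50 and 1.55 on the Nestin-negative arrays, and with the block 5 of its 6 tested genes were lower, Igf2 (-1.74 ± 0.13), Dcn (-1.94 ± 0.18), Lum (-1.80 ± 0.19) and Col1a2 (-1.55 ± 0.19) among them. Of the blood cell markers, 2 passed the filter. The platelet gene Pf4 was lower with the block (-2.43 ± 0.25), whereas Itga2b was not (0.03 ± 0.21). Dcn (38.1), Lum (28) and Pf4 (31.8) were dim on Nestin-positive replicate 1, so the sizes given for them rest partly on dim values.

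**Figure D4:**
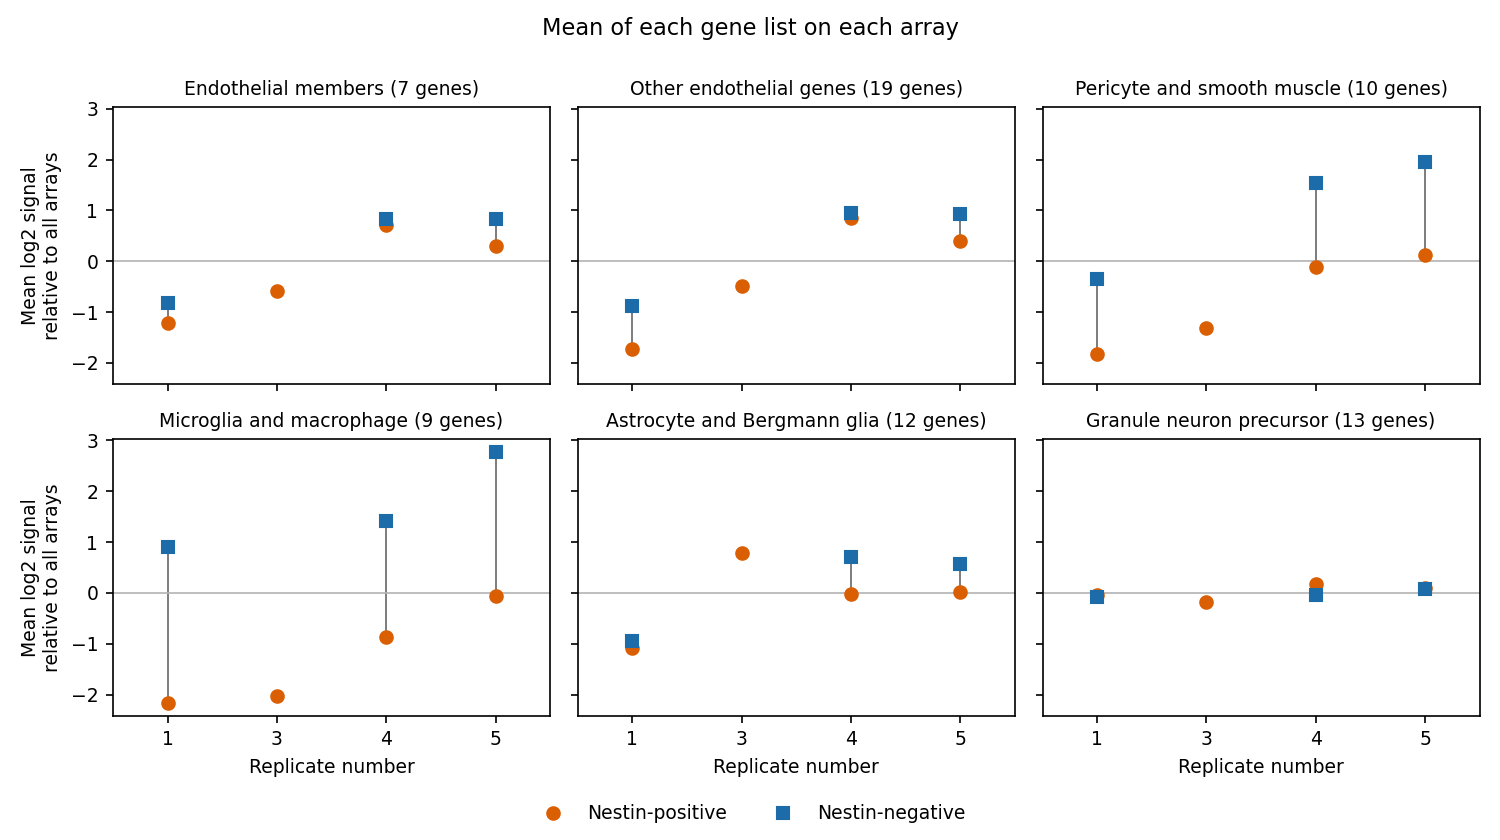
Mean log2 signal of 6 gene lists on each array, with the average over arrays set to 0, against replicate number, with Nestin-positive arrays as circles and Nestin-negative arrays as squares joined within a number. The endothelial members range from -1.22 to 0.82 with gaps of 0.11 to 0.53 within pairs. The pericyte and microglia lists have gaps of 1.47 or more within each pair, and the granule neuron precursor list stays between -0.18 and 0.17. Only genes that passed the filter are averaged.

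Among themselves, 6 of the 7 genes had like courses over the arrays. The Pearson correlation of each with the mean of the other members over the 7 arrays was 0.994 for Cdh5, 0.992 for Cldn5, 0.973 for Esam, 0.932 for Kdr, 0.886 for Flt1 and 0.844 for Tek, and 0.173 for Slco1a4. Cdh5, Tek and Flt1 passed the filter only through arrays of replicates 4 and 5, which favours like courses. The 7 arrays also share replicate numbers and a fraction, so the values are descriptive. The 10 genes outside the list with the highest correlation, of 11082 compared, were Lsm1, Igfbp7, Adgrf5, Slco1c1, Cops6, Ube2f, Fli1, Rab22a, Ndufb2 and Slc40a1 (0.988 to 0.997). They fell into dim and bright genes. Igfbp7, a secreted protein of vessels, Adgrf5, an adhesion receptor of endothelium, Slco1c1, the thyroxine transporter of brain vessels, the ETS factor gene Fli1 and the iron exporter gene Slc40a1 were dim on at least 1 array of replicate 1. Adgrf5, Slco1c1 and Fli1 were dim on both, so the size of their differences is not known. For Igfbp7 and Slc40a1 the size rests partly on dim values. Lsm1, Cops6, Ube2f, Rab22a and Ndufb2, which are broadly expressed genes, were bright on all arrays and had log2 differences of 0.36 to 0.55 between replicates 4 and 1. Slco1c1 read 46.2, 78.9, 525 and 277 on the Nestin-positive and 74.2, 424 and 441 on the Nestin-negative arrays.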

How the data were processed

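Each sample was 1 biotin-labelled Affymetrix Mouse Genome 430 2.0 array of total RNA from sorted cells. The deposited values are MAS5 intensity, a linear probe set signal, per the submitters' processing notes, which give no version. The trimmed mean of the deposited values was 500 on all arrays. Detection calls were not used, and no pair of arrays held identical values.

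Of 45101 probe sets 64 controls were left out. The platform annotation gave 1 gene to 34945 (34741 updated through Entrez IDs and RefSeq GRCm38.p6 names), several to 932 and none to 9160. Log2 was taken without a pseudocount. Probe sets at or above the array median on at least 3 arrays were kept (23585), and the brightest by mean log2 stood for its gene (11089 genes). Groups, from the sample titles, were compared by limma (version 3.58.1, R 4.3.3; intensity trend, two-sided, Benjamini-Hochberg over all genes tested, threshold 0.05). The function was tested on simulated data. Folds of genes that are dim on all arrays of one side are bounds, from values raised to the array median.

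Same-numbered samples deviated together (r = 0.71, 0.39 and 0.47 across genes for replicates 1, 4 and 5; other pairs -0.60 to 0.19), so the number was taken as a pairing, from the data and not the labels. The blocked fit used the paired arrays, whose 2 residual degrees of freedom became 20.2 on moderation, so that its errors rest mostly on spread pooled over genes. The 10 genes, the gene lists and the tests were chosen with earlier results of these data known. Named genes are the 10 members, Nes, list members called without the block and otherwise up to 4 per list by smallest p-value with it, and the 10 genes most correlated with the members. Ptprb was added for its difference between replicate numbers. Alternatives were the block, each array or pair left out, quantile normalization, raised values, log2(intensity + 32), other filters, the mean of probe sets and no trend.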

Additional observations from a re-analysis of the deposited data

How the results depend on the processing

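Over the alternatives run, the count of 0 endothelial genes called between the fractions held with each array left out, quantile normalization, raised values, log2(intensity + 32), the mean of probe sets, no filter, a stricter filter and no intensity trend, and became 1 with the replicate block (0 to 2 with a pair left out). The median of -0.46 was 0.03 where only genes at or above the median on all 7 arrays were used, which left Slco1a4 alone. The sign turned for Tek with raised values (-0.02) and log2(intensity + 32) (-0.01), and for Slco1a4 with the replicate block (-0.07, and -0.21 and -0.06 without pairs 1 and 5, but not without pair 4, 0.06). With 1 array left out, Kdr ranged from -0.92 to 0.01, Tek from -0.81 to 0.61 and Slco1a4 from -0.10 to 0.21. The replicate number term called 6 genes of 10, 8 with quantile normalization, 4 with the mean of all probe sets, and 0 with the stricter filter, which left 1 gene. The shares called over all genes were 5.94%, 6.47%, 4.65% and 17.9% in turn. Tek, which is among the 6, did not pass with raised values (F test, adjusted p = 0.721). Counts of this term among genes that passed the usual filter are not used, since Cdh5, Tek and Flt1 passed it only through arrays of replicates 4 and 5. With the replicate block, 10.1% of all genes tested were called. Called members were then 1 of 9 in the VEGF list, 4 of 19 in the wider endothelial list and 1 of 21 in the barrier list. They were 9 of 10 in the pericyte list, 9 of 9 in the microglia list and 1 of 2 in the blood cell list. They were 5 of 6 in the meningeal list, 8 of 12 in the astrocyte list and 5 of 13 in the precursor list. List medians were 0.05 for VEGF and 0.04 for precursors. With 1 array left out the microglia list had 0 to 1 called against 2, and the meningeal list 0 to 1 against 0; medians ranged from -0.10 to 0.05 for VEGF, -0.95 to 0.17 for astrocytes and -0.12 to 0.04 for precursors. The cause of these shifts was not tested. Of the 15 endothelial probe sets, 1 to 4 lay at or above the array median on each array of replicates 1 and 3, which limits what sizes can be given there.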
